A study of Danio rerio with 12 samples.

Results

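The 9 genes described here carry cytokine signals through the Jak-Stat pathway of the zebrafish (Danio rerio) and its Socs inhibitors. They are the ligand genes il11a, il11b and lepb, the receptor gene il6st, the kinase gene jak1, the transcription factor gene stat3, and the inhibitor genes socs1a, socs3a and socs3b. They belong to a set of 10 genes chosen by symbol, and all rows of the processed table that carry those symbols were taken, 12 entries out of 35497. The 9 genes hold 11 of these, an entry being the transcripts of 1 class (such as protein coding) of 1 gene identifier. Whole bodies were sampled at 48 h in the groups BaP (benzo[a]pyrene, an aromatic hydrocarbon and Ah receptor agonist), Diclofenac (an anti-inflammatory drug that blocks cyclooxygenases), Mixture (both compounds) and Control, and their RNA was sequenced. Each of the 4 groups had 3 libraries, labelled as replicates. Strain, age and dose, and what the Control received, are not given in the labels.

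In this pathway a cytokine brings its receptor chains together, the Jak kinases bound to them phosphorylate the receptor, and Stat proteins are recruited, phosphorylated and sent to the nucleus. The chain encoded by il6st, gp130, is shared by the receptors for interleukin 6, interleukin 11 and related cytokines and signals mainly through Stat3. Stat3 switches on socs3 genes, whose products block Jak and gp130 and so close a negative feedback loop. In zebrafish, il11a, il11b, lepb, stat3 and socs3 genes are known for their induction in injured and regenerating tissue.

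The authors' deposited table holds, for each entry, a log2 fold change of each treatment over Control with its likelihood ratio and p-value, and 1 average over all libraries in log2 CPM (a read count divided by its library's total, times 1000000). Values per library were not analysed here, and the depth of each library is unknown from this table. Protocols in the labels give 40000000 to 80000000 reads a library. The group levels below, called implied levels, were therefore calculated from that average and the 3 fold changes, on the assumption that the 4 groups weigh equally. The lowest value of the average, its floor of 0.144 CPM, was subtracted first, so an undetected gene has an implied level of 0. Implied levels carry no error of their own, and CPM is not scaled for transcript length, so levels are compared between groups and not between genes. Intervals are 95% intervals implied by the fold change and its likelihood ratio. Of all entries, 21622 averaged at least 1 CPM, and a change was called where p, adjusted over these by the Benjamini-Hochberg procedure, was under 0.05. P-values rest on the spread between 3 libraries a group, and the labels do not say whether these came from separate animals.

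The same 6 member genes, lepb, il6st, jak1, stat3 and the pair of socs3 genes, were higher with Diclofenac and with the Mixture, whereas socs1a did not pass in any comparison. Of the 11 entries, 7 averaged at least 1 CPM and were tested. Of these 7, 6 rose and 0 fell with Diclofenac, where 8.52% of all tested entries rose and 7.64% fell. With the Mixture 6 of the 7 rose and 0 fell, against 8.12% and 6.67% of all tested entries. With either treatment no further tested member had an unadjusted p under 0.05. The median log2 fold change of the 7 was 1.75 with Diclofenac and 1.37 with the Mixture, against -0.01 and 0.02 over all tested entries. The genes were put together with earlier results of these data known, and lepb reached 1 CPM only through Diclofenac and the Mixture, so these counts describe the set and test nothing about it. The entries not tested were il11a, il11b and 2 minor jak1 entries.

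**Figure D1:**
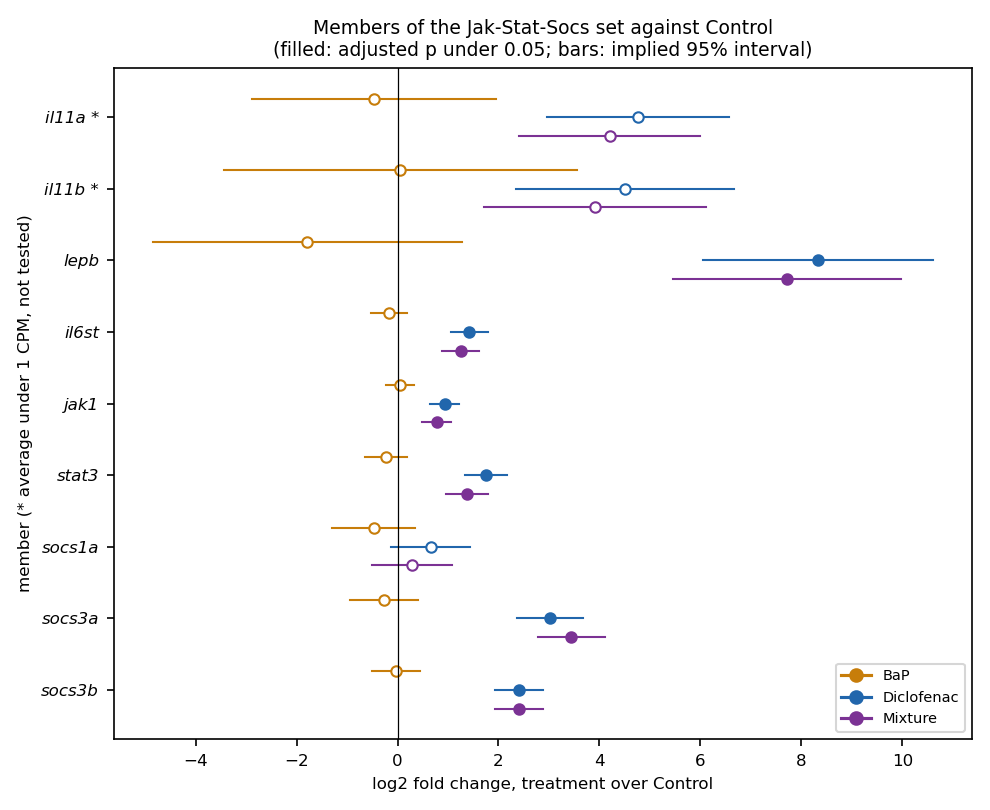
Log2 fold change of each member over Control (x axis) for BaP, Diclofenac and the Mixture, with bars for the implied 95% interval and filled points for an adjusted p under 0.05. The BaP points lie between -1.79 and 0.05, and the Diclofenac and Mixture points of lepb, il6st, jak1, stat3, socs3a and socs3b lie right of 0 with their whole intervals.

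Among the ligands, lepb (ENSDARG00000045548) had the largest fold change of the tested members. This gene encodes a leptin, a hormone of the same helical cytokine family whose receptor signals through Jak2 and Stat3. Its implied level was 0.00881 CPM with BaP, 9.82 CPM with Diclofenac, 6.40 CPM with the Mixture and 0.0304 CPM in Control. The Control and BaP levels lie close to 0, so lepb was close to undetected there. With the floor kept in the average they were 0.0315 and 0.00912 CPM, under the 0.144 CPM at which the deposited average bottoms out. In the authors' deposited table its log2 fold change was 8.33 with Diclofenac (interval 6.06 to 10.6, likelihood ratio test, adjusted p = 7.43e-11). The same table gave 7.72 with the Mixture (authors' deposited table, interval 5.47 to 9.97, adjusted p = 1.97e-09). Folds against so low a Control depend on the offset used in the authors' fit, so their size is uncertain while the levels with Diclofenac and the Mixture are not near the floor.

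The interleukin 11 genes il11a (ENSDARG00000037859) and il11b (ENSDARG00000058557) encode cytokines that act through the interleukin 11 receptor and gp130. Both averaged under 1 CPM, 0.952 and 0.422 CPM, and so stood outside the tested entries. For il11a the implied levels were 0.0496 CPM with BaP, 1.86 CPM with Diclofenac, 1.26 CPM with the Mixture and 0.0683 CPM in Control. For il11b they were 0.0288, 0.635, 0.419 and 0.0278 CPM in the same groups. Both genes thus had their higher levels with Diclofenac and the Mixture. With BaP and in Control they lay under the floor of the average, whether the floor was subtracted or kept. The authors' deposited table gave il11a log2 fold changes of 4.76 (unadjusted p = 2.06e-07, likelihood ratio test) with Diclofenac and 4.20 (unadjusted p = 4.56e-06) with the Mixture. In the authors' deposited table il11b stood at 4.51 (unadjusted p = 4.19e-05, likelihood ratio test) and 3.92 (unadjusted p = 4.95e-04) in those comparisons. With no limit on the average, both genes passed after adjustment over the whole table, at 1.17e-05 and 2.11e-04 for il11a and 0.00119 and 0.0101 for il11b (adjusted p, likelihood ratio test, Diclofenac first). With Diclofenac the intervals ran from 2.97 to 6.56 for il11a and from 2.35 to 6.68 for il11b. As for lepb, the size of folds against so low a Control is uncertain.

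The receptor chain gene il6st (ENSDARG00000104693) rose well above its Control level in both Diclofenac groups. Its implied level was 57.3 CPM with BaP, 173 CPM with Diclofenac, 154 CPM with the Mixture and 64.4 CPM in Control. The Diclofenac fold change was 1.43 (log2) in the authors' deposited table, or 2.69-fold (interval 1.06 to 1.79, likelihood ratio test, adjusted p = 4.25e-12). With the Mixture the log2 fold change in the authors' deposited table was 1.26, or 2.39-fold (interval 0.89 to 1.62, adjusted p = 1.98e-09).

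The kinase gene jak1 (ENSDARG00000020625), whose product is bound to gp130 and to many other cytokine receptors, moved least of the 6 that rose. Its protein-coding entry had an implied level of 86.0 CPM with BaP, 159 CPM with Diclofenac, 142 CPM with the Mixture and 83.0 CPM in Control. Log2 fold changes in the authors' deposited table were 0.94 with Diclofenac (1.91-fold, likelihood ratio test, adjusted p = 9.14e-09) and 0.77 with the Mixture (1.71-fold, adjusted p = 4.94e-06). Neither reached 2-fold. A second class of the same identifier, a processed transcript, averaged only 0.214 CPM. That entry had log2 fold changes of -3.63 with both Diclofenac and the Mixture in the authors' deposited table (unadjusted p = 0.0489 and 0.0458, likelihood ratio test) and did not pass with no limit on the average (adjusted p = 0.237 and 0.239). The split of reads between classes of 1 gene is uncertain, and at these averages the minor class barely bears on the total. A second identifier that carries the jak1 symbol, ENSDARG00000117102, lay at the floor of the average.

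The transcription factor gene stat3 rose with both treatments. Stat3 is the main Stat protein of gp130 cytokines. The implied level of stat3 (ENSDARG00000022712) was 15.5 CPM with BaP, 60.5 CPM with Diclofenac, 46.7 CPM with the Mixture and 18.0 CPM in Control. In the authors' deposited table stat3 had a log2 fold change of 1.75 with Diclofenac, or 3.35-fold (interval 1.33 to 2.16, likelihood ratio test, adjusted p = 3.47e-14). For the Mixture the authors' deposited table gave 1.37, or 2.59-fold (interval 0.96 to 1.79, adjusted p = 7.17e-09).

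Among the inhibitors, socs3a and socs3b rose together and socs1a did not pass. Socs3 binds gp130 and Jak and blocks the kinase, and Socs1 acts on Jak kinases, above all in interferon signalling. Implied levels of socs3a (ENSDARG00000025428) were 2.55 CPM with BaP, 25.0 CPM with Diclofenac, 33.3 CPM with the Mixture and 3.06 CPM in Control. In the authors' deposited table socs3a had log2 fold changes of 3.03 with Diclofenac, or 8.15-fold (interval 2.37 to 3.68, likelihood ratio test, adjusted p = 4.48e-17), and 3.44 with the Mixture, or 10.9-fold (interval 2.78 to 4.11, adjusted p = 1.66e-21). It was the only tested member with a higher point value with the Mixture than with Diclofenac, a difference that did not pass.

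For socs3b (ENSDARG00000026611) the implied levels were 8.09 CPM with BaP, 44.0 CPM with Diclofenac, 43.7 CPM with the Mixture and 8.25 CPM in Control. The levels with Diclofenac and the Mixture lay close together, as did those with BaP and in Control. Its log2 fold change in the authors' deposited table was 2.41 with Diclofenac and again 2.41 with the Mixture, 5.33-fold and 5.30-fold (likelihood ratio test, adjusted p = 1.35e-20 and 1.85e-20). By p it ranked at 59 with Diclofenac and at 50 with the Mixture among the 21622 tested entries, while socs3a ranked at 89 and at 42. The third inhibitor, socs1a (ENSDARG00000038095), had low implied levels of 1.09 CPM with BaP, 2.39 CPM with Diclofenac, 1.85 CPM with the Mixture and 1.51 CPM in Control. Its log2 fold changes in the authors' deposited table were 0.66 with Diclofenac (interval -0.12 to 1.44, likelihood ratio test, adjusted p = 0.278) and 0.29 with the Mixture (interval -0.50 to 1.09, adjusted p = 0.713). With so wide an interval a rise of up to 1.44 on the log2 scale lies within the error.

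**Figure D2:**
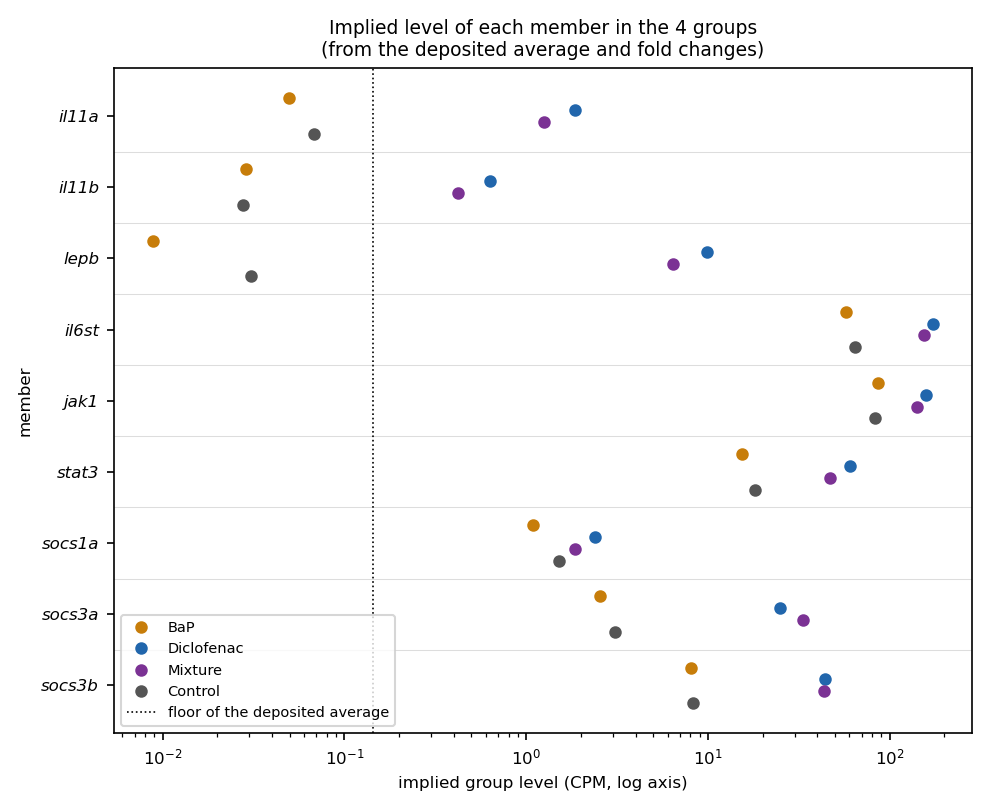
Implied level of each member in CPM (logarithmic x axis) with BaP, Diclofenac and the Mixture and in Control, with a dotted line at 0.144 CPM, the floor of the deposited average. The floor is already subtracted from the levels shown. For every member shown the Diclofenac and Mixture points lie right of the BaP and Control points, and for il11a, il11b and lepb the BaP and Control points lie under the floor.

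BaP alone raised or lowered none of the 7 tested entries by the likelihood ratio test, and 0 of them had an unadjusted p under 0.05. In this comparison 0.148% of all tested entries were called. The point values of 6 of the 7 were below 0, with a median of -0.22 against 0.02 over all tested entries, and every interval crossed 0. The narrowest intervals were those of jak1, il6st, stat3 and socs3b, and changes as large as their ends lie within the error. For jak1 the log2 fold change was 0.05 in the authors' deposited table (interval -0.23 to 0.34, adjusted p = 1.00), and for il6st it was -0.17 (authors' deposited table, interval -0.53 to 0.19, adjusted p = 1.00). The stat3 value in the authors' deposited table was -0.22, with an interval of -0.64 to 0.20. The socs3b value there was -0.03, with an interval of -0.51 to 0.45. For lepb the interval ran from -4.85 to 1.28 and gives little information.

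The Mixture was also set against each compound alone, with a Wald test that uses the implied variances and is approximate. These comparisons ask what the second compound adds if the Mixture held each compound at its single dose, which the labels do not state. Against BaP, 6 of the 7 tested entries were higher with the Mixture and 0 lower, where 8.33% of all tested entries were higher and 8.12% lower. They were the same 6 genes, lepb, il6st, jak1, stat3, socs3a and socs3b. The difference was 3.71 ± 0.34 for socs3a (log2, implied SE, Wald test, adjusted p = 2.59e-24), 2.43 ± 0.24 for socs3b (adjusted p = 9.38e-21) and 1.59 ± 0.21 for stat3 (adjusted p = 9.68e-12). For il6st it was 1.43 ± 0.19 (Wald test, adjusted p = 4.88e-12) and for jak1 0.72 ± 0.15 (adjusted p = 2.52e-05). The difference of lepb, 9.50 ± 1.56 (Wald test, adjusted p = 8.37e-08), sets the Mixture against a BaP level under the floor. For socs1a it was 0.77 ± 0.42 and did not pass (Wald test, adjusted p = 0.221).

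Against Diclofenac, 0 of the 7 tested entries differed with the Mixture by the Wald test, and 0 had an unadjusted p under 0.05, where 0.365% of all tested entries were called. The largest differences relative to their error were -0.37 ± 0.21 for stat3 (interval -0.79 to 0.04, Wald test, adjusted p = 0.748) and 0.42 ± 0.34 for socs3a (interval -0.26 to 1.09, adjusted p = 0.870). The socs3b difference was -0.01, with an interval of -0.49 to 0.47. Intervals of this width do not show an equal response. For lepb the interval ran from -3.68 to 2.45, but its width came from the BaP comparison, where lepb was close to undetected. That width does not measure the spread of lepb with Diclofenac and the Mixture, at implied levels of 9.82 and 6.40 CPM.

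The interaction, the Mixture value minus the BaP and Diclofenac values on the log2 scale, was called for 0 of the 7 entries by the Wald test, and 0 had an unadjusted p under 0.05. Over all tested entries 0.0462% were called. The interaction was 0.68 ± 0.49 for socs3a (adjusted p = 0.999, Wald test), 0.02 ± 0.35 for socs3b, -0.15 ± 0.30 for stat3 and 0.00 ± 0.27 for il6st. For these 4 genes the Mixture did not depart detectably from the sum of the single responses, within intervals reaching from -0.27 to 1.63 for socs3a and from -0.52 to 0.52 for il6st. For jak1 the interaction was -0.21 ± 0.21 and for socs1a 0.11 ± 0.59. That of lepb was 1.17 ± 2.21, with an interval of -3.16 to 5.50 that gives little information.

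**Figure D3:**
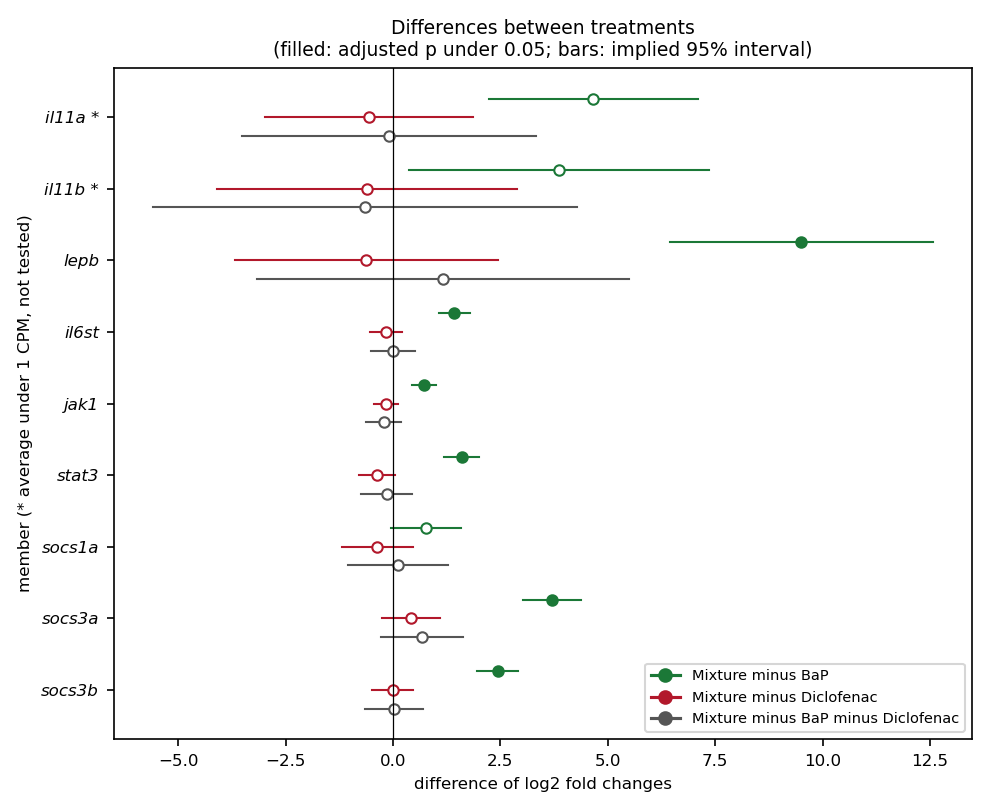
Differences between treatments for each member on the log2 scale (x axis), as Mixture minus BaP, Mixture minus Diclofenac, and Mixture minus both, with bars for the implied 95% interval and filled points for an adjusted p under 0.05. The filled points are Mixture minus BaP for lepb, il6st, jak1, stat3, socs3a and socs3b, and every interval of the other 2 differences crosses 0.

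The members were then placed among 102 tested genes of the wider pathway, in lists of ligands, receptors, Jak kinases, Stat factors, inhibitors and known targets of Stat3, 1 entry a gene. Outside the members, 27 of 95 tested genes rose and 1 fell with Diclofenac, with a median of 0.37, and 29 rose and 1 fell with the Mixture, with a median of 0.33. Over all tested entries 8.52% rose and 7.64% fell with Diclofenac, and 8.12% rose and 6.67% fell with the Mixture. These shares are the background for the counts of each list below. The limit of 1 CPM is on the average over all groups. As for lepb, a gene could therefore enter the tested genes of a list through high levels with Diclofenac and the Mixture alone. The lists were written with earlier results of these data known, il4r.1 stands in 2 of them, and 3 Stat3 targets (fga, fgb and serpina1) are also liver markers, so they are described by their counts and medians alone.

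Most ligand genes were too low to test. Of 37 in the table, 11 averaged at least 1 CPM, 2 rose with Diclofenac and 4 with the Mixture. Besides lepb, prl (prolactin, a pituitary hormone whose receptor signals through Jak2 and Stat5) rose by 2.45 with Diclofenac and 1.52 with the Mixture in the authors' deposited table (likelihood ratio test, adjusted p = 3.31e-21 and 5.39e-08). It was also the only gene of these lists called with BaP, where it fell by 1.36 (authors' deposited table, adjusted p = 0.00527). With the Mixture epoa (erythropoietin) rose by 1.35 and il15 (interleukin 15) fell by 2.55 in the authors' deposited table (likelihood ratio test, adjusted p = 0.0133 and 0.00636). With Diclofenac they stood at 1.12 and -1.30 and did not pass (authors' deposited table, likelihood ratio test, unadjusted p = 0.00824 and 0.0560). A second tested class of il15, of similar average, stood at 0.48 with the Mixture (authors' deposited table, likelihood ratio test, unadjusted p = 0.327). The fall of il15 thus holds for its protein-coding class alone. The interleukin 6 gene itself averaged 0.175 CPM and was not tested. The second leptin gene lepa, chosen after its values were seen, averaged 0.773 CPM and had log2 fold changes of 4.76 with Diclofenac and 4.56 with the Mixture in the authors' deposited table (unadjusted p = 5.59e-07 and 1.60e-06, likelihood ratio test).

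Receptor genes rose in 9 of 30 tested cases with Diclofenac and in 10 with the Mixture, and 0 fell in either, nor did any have an unadjusted p under 0.05 in that direction (likelihood ratio test). After il6st the smallest p-values belonged to il4r.1 (a receptor for interleukin 4) and il13ra1 (a receptor for interleukin 13). In the authors' deposited table il4r.1 rose by 2.46 with Diclofenac and 2.16 with the Mixture (likelihood ratio test, adjusted p = 3.42e-11 and 1.17e-08). The il13ra1 values in the authors' deposited table were 1.48 and 1.27 (adjusted p = 7.55e-08 and 8.13e-06). The specific partner chain of interleukin 11, il11ra, chosen after its values were seen, was near its Control level at 0.07 with Diclofenac and 0.04 with the Mixture in the authors' deposited table (likelihood ratio test, adjusted p = 0.891 and 0.949). Other tested receptor genes of gp130 cytokines, also chosen after their values were seen, varied. In the authors' deposited table lifrb stood at 1.35 with Diclofenac and 0.84 with the Mixture (likelihood ratio test, unadjusted p = 3.21e-08 and 6.58e-04). The values of il6r there were 0.23 and 0.88 (unadjusted p = 0.333 and 1.00e-04), and those of lifra 0.72 and 0.56 (unadjusted p = 0.0194 and 0.0698). For cntfr they were -0.05 and -0.13 (unadjusted p = 0.703 and 0.362). With BaP alone il6r stood at 0.69 in the authors' deposited table (likelihood ratio test, unadjusted p = 0.00214) and was not called.

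Of the kinase and Stat genes besides jak1 and stat3, tyk2 and jak2a were called. Of 5 tested kinases, tyk2 rose beside jak1, by 0.97 with Diclofenac and 0.93 with the Mixture in the authors' deposited table (likelihood ratio test, adjusted p = 0.00119 and 0.00244). The kinase gene jak2a fell by 0.66 with Diclofenac (authors' deposited table, adjusted p = 0.0136) and stood at -0.39 with the Mixture (adjusted p = 0.202). Of 6 Stat genes stat3 alone was called in either comparison, and no other had an unadjusted p under 0.05 (likelihood ratio test). Among 23 tested inhibitors 3 rose with each treatment, socs3a, socs3b and ptpn1, the gene of a tyrosine phosphatase that acts on Jak kinases. Outside the members ptpn1 alone rose, no excess over the 8.52% and 8.12% of all tested entries that rose. For ptpn1 the log2 fold changes in the authors' deposited table were 0.58 and 0.52 (likelihood ratio test, adjusted p = 5.57e-04 and 0.00302). No inhibitor fell with Diclofenac or the Mixture, with 0 and 1 at an unadjusted p under 0.05 in that direction.

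Genes listed as Stat3 targets rose in 17 of 28 tested cases with Diclofenac and in 16 with the Mixture, and 0 fell, also at an unadjusted p under 0.05 (likelihood ratio test). The transcription factor genes junbb and fosab led by p, at 3.38 and 4.36 with Diclofenac and 3.45 and 5.29 with the Mixture in the authors' deposited table (likelihood ratio test, adjusted p = 2.04e-46, 4.26e-19, 2.75e-48 and 6.29e-26). These are AP-1 genes that many stimuli besides cytokines induce. The metalloprotease inhibitor gene timp2b rose by 3.21 with Diclofenac and the acute-phase regulator gene cebpb by 2.80 with the Mixture in the authors' deposited table (likelihood ratio test, adjusted p = 2.59e-16 and 5.12e-21). Both also rose with the other treatment. In the authors' deposited table timp2b stood at 3.08 with the Mixture and cebpb at 2.39 with Diclofenac (likelihood ratio test, unadjusted p = 1.66e-17 and 3.24e-18). Of the liver acute-phase genes in the list, those given here were chosen after their values were seen. The fibrinogen genes fga, fgb and fgg had log2 fold changes of -0.07, 0.10 and 0.17 with Diclofenac in the authors' deposited table (likelihood ratio test, adjusted p = 0.904, 0.825 and 0.592). In the authors' deposited table they stood at 0.29, 0.31 and 0.33 with the Mixture (likelihood ratio test, adjusted p = 0.472, 0.363 and 0.227). Haptoglobin, hp, stood at 0.00 with Diclofenac and -0.20 with the Mixture in the authors' deposited table (likelihood ratio test, adjusted p = 0.996 and 0.403). The antitrypsin-like gene serpina1l rose, by 0.65 with Diclofenac and 0.81 with the Mixture in the authors' deposited table (likelihood ratio test, adjusted p = 0.00971 and 8.53e-04). The related gene serpina1 stood at 0.19 and 0.33 there (likelihood ratio test, unadjusted p = 0.333 and 0.0950). With BaP hp, serpina1 and fgg stood at -0.56, -0.47 and -0.38 (likelihood ratio test, unadjusted p = 8.15e-05, 0.0160 and 0.0371), and none was called. A second, less abundant hp identifier stood at -0.0009 with BaP (likelihood ratio test, unadjusted p = 0.998). Its values were -0.03 with Diclofenac and 0.35 with the Mixture (likelihood ratio test, unadjusted p = 0.922 and 0.305). The BaP values of fga, fgb and serpina1l were -0.25, -0.32 and -0.04 (unadjusted p = 0.307, 0.128 and 0.837).

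**Figure D4:**
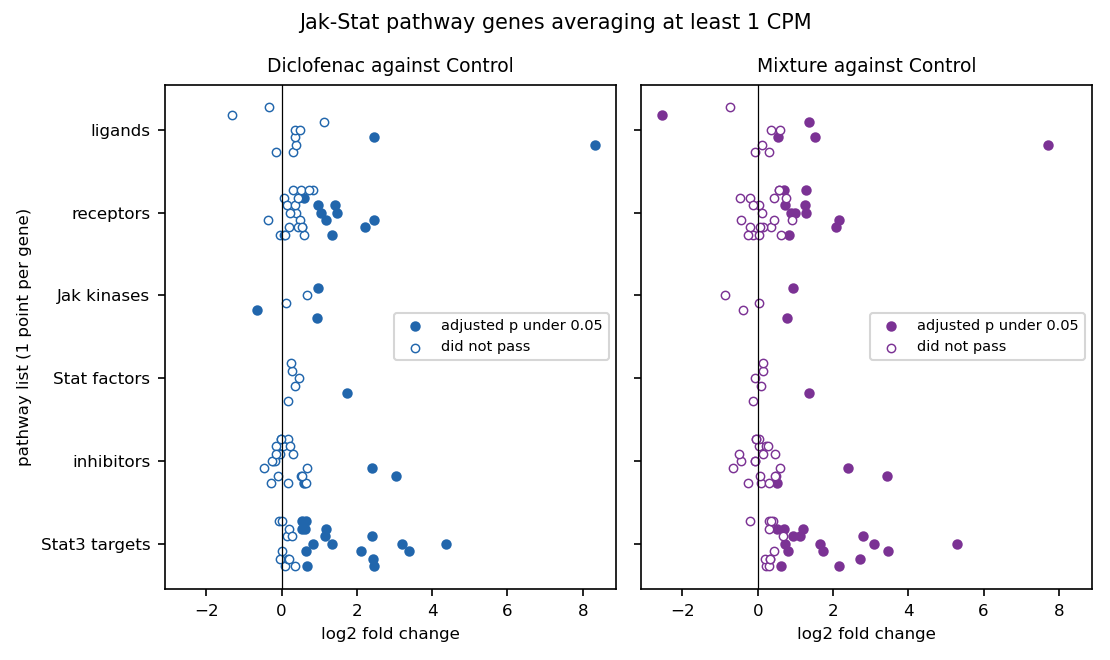
Log2 fold change over Control (x axis) of each pathway gene averaging at least 1 CPM, by list, with Diclofenac on the left and the Mixture on the right, and filled points for an adjusted p under 0.05. The filled points lie right of 0 except jak2a with Diclofenac and il15 with the Mixture, and the Stat factors show 1 filled point, stat3, in each panel.

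The 5 protein-coding entries whose 3 log2 fold changes lay nearest to those of socs3b were sought among 20628 named entries. The measure was the Euclidean distance over the 3 comparisons, which share their Control. They were rhbdd1 (distance 0.219), si:rp71-80o10.4 (0.227), si:dkey-23i12.7 (0.245), klhl41a (0.250) and irf9 (0.258). With 3 values a gene this likeness is a coarse one.

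In whole-body RNA a change in the number of cells of a type and a change in RNA per cell cannot be told apart, so marker genes of 4 tissues are given beside these results. No marker in the table lay at the floor of the average. The counts stand beside 8.52% of all tested entries higher and 7.64% lower with Diclofenac, and 8.12% and 6.67% with the Mixture. Leukocyte markers, whose cells express Socs and Stat genes, had a summed implied level of 450 CPM with BaP, 505 CPM with Diclofenac, 491 CPM with the Mixture and 415 CPM in Control. Most of the rise in this sum came from mmp9, chosen after its values were seen. In the authors' deposited table mmp9 stood at 3.93 with Diclofenac and 3.55 with the Mixture (log2). Of 22 leukocyte markers tested, 8 rose and 0 fell with Diclofenac and 4 rose and 0 fell with the Mixture, with 0 lower at an unadjusted p under 0.05 (likelihood ratio test). The summed level of 12 epidermal markers was 17538 CPM with BaP, 22347 CPM with Diclofenac, 18428 CPM with the Mixture and 16535 CPM in Control. Of these, 4 rose and 1 fell with Diclofenac, and 2 rose and 1 fell with the Mixture. Most of this sum was krt4, chosen after its values were seen. In the authors' deposited table krt4 stood at 0.68 with Diclofenac and 0.34 with the Mixture (log2, likelihood ratio test, unadjusted p = 0.00619 and 0.175). A second, less abundant krt4 identifier outside the sum stood at 0.21 and -0.27 (likelihood ratio test, unadjusted p = 0.531 and 0.415). Without krt4 the epidermal sum did not rise with either treatment. The summed level of 16 skeletal muscle markers was 78343, 30467, 38478 and 66355 CPM in the same groups, and 14 of the 16 fell with Diclofenac and 11 with the Mixture. The slow myosin gene smyhc1 was the 1 muscle marker that rose, by 0.71 and 0.48 (log2) in the authors' deposited table. The summed level of 12 liver markers was 8434, 11993, 12766 and 9895 CPM. Most of the rise in the liver sum came from apobb.1, at 0.68 with Diclofenac and 0.63 with the Mixture (log2, authors' deposited table). Of the 11 liver markers tested, 1 rose (apobb.1) and 1 fell (fabp10a) with Diclofenac, and 1 rose (apobb.1) and 0 fell with the Mixture, where 1 had a lower value at an unadjusted p under 0.05 (likelihood ratio test). The summed muscle level and most muscle markers were thus lower where lepb, il6st, jak1, stat3, socs3a and socs3b were higher, and the part of these tissues in the results was not tested.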

How the data were processed

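RNA from 12 whole-body libraries (3 per group) was analysed from the comparison table that the authors deposited, in which replicates are already combined. Per the submitters' processing notes, kallisto, edgeR, limma and the build GRCz11 were used, with no version or role named; how the authors filtered and scaled the data is not given in the sources used here. Per the file headers the deposited log2 values are fold changes over Control and an average log2 CPM; their base was taken as 2 because the averages then sum to 1007677 CPM. The likelihood ratio that the authors deposited is an unbounded score, and the deposited p-value is its chi-square tail on 1 degree of freedom, unadjusted. The 3 deposited averages of an entry were identical in the file, so they cover the whole fit.

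Two-sided p-values received Benjamini-Hochberg adjustment over 21622 entries of at least 1 CPM. The implied variance of a fold change is its square over the likelihood ratio. For differences between treatments the largest of the 3 was used (2 times that for the interaction), assuming equal spread. Implied levels split the average, less its floor of 0.144 CPM (2469 entries lie within 5e-06 of it), by the fold changes. The tests were tried on simulated data drawn with that same equal spread, so this trial could not check the assumption. Members, gene lists and tests were chosen with earlier results of these data known. Named genes are all members reported, up to 3 called genes per list, direction and treatment by p, the 5 nearest to the member with the smallest Diclofenac p, and those marked as chosen later. Older symbols were matched through RefSeq names (GRCz12tu, names only). Planned fits that need values per library were not run. Alternatives were other abundance limits, adjustments, classes, fold limits, centring and variances. Python 3.11.15, NumPy 2.4.6, pandas 2.3.3 and SciPy 1.17.1 were used. Coordinates and sequences were not used here. A gene of the set and the planned results that need it are not reported here.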

Additional observations from a re-analysis of the deposited data

How the results depend on the processing

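The 6 calls of lepb, il6st, jak1, stat3, socs3a and socs3b with Diclofenac, with the Mixture and for the Mixture against BaP were kept without an abundance limit, at 5 CPM where the gene reached it, under Benjamini-Yekutieli adjustment, with protein-coding entries alone, with 1 entry per symbol, and with the median of all entries removed. Fold limits changed counts by construction. Under a limit of 1.5 on the log2 scale, the Mixture kept 3 called members in place of 6. The called pathway genes were 34 with Diclofenac, 36 with the Mixture and 36 for the Mixture against BaP. At 2-fold these were 21, 22 and 22, and at 1.5 they were 13, 14 and 13. Shares of all tested entries under the fold limits were not calculated, so no excess can be read from the counts under them. With BaP the 1 called pathway gene became 0 under Benjamini-Yekutieli adjustment and at 1.5, and 2 with the median removed. For the Mixture against Diclofenac 0 became 2 with the median implied variance. Of 357 single member values, 341 kept direction and call, 10 lost and 5 gained a call, and the il6st interaction, near 0, changed sign with the median removed (to -0.018). Keeping the floor in the average, an alternative chosen after seeing the data, moved the implied levels of il11b and of the 2 minor jak1 entries by over 1.5 times, and those of no other member entry. No paired analysis was possible because the deposited table combines the replicates; for the same reason no replicate was left out and no other count tool was run. Depth per library is unknown. It limits il11a and il11b, and also lepb with BaP and in Control.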
